A study of Mus musculus with 9 samples.

Results

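The genes described here encode the proteins of the mitochondrial ribosome, measured in 9 mouse hearts. A gene was included when the array annotation gave it a probe set with a single symbol that starts with Mrpl (large subunit) or Mrps (small subunit) and a digit, and the probe set with the highest mean signal stood for the gene. By this rule 71 genes were members, of 22180 genes with such a probe set, and 70 of the 71 were tested. Mrpl27 was not tested, because its mean signal lay below 5.21 log2 units, the median over all probe sets, which was the minimum for testing. The rule itself used no measured difference, but the members were chosen with earlier results of these data known.

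The hearts came from 2 month old mice of 3 genotypes, with 3 hearts each and 1 array per heart. Col4a3-/-OPN-/- mice lack Col4a3, which encodes a type IV collagen chain of basement membranes, and OPN (osteopontin, gene Spp1), a secreted glycoprotein. Col4a3-/- mice lack the collagen chain alone and model the Alport syndrome, a hereditary disease of the kidney. Wild type (WT) mice carry neither deletion, and the title of the series asks about osteopontin and mitochondria in heart failure of the Alport mouse. The strain and sex of the animals, the design of the deletions and the shared litters, if any, are not given in the sources used here.

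Mitochondria hold their own ribosome, which translates the few proteins that the mitochondrial genome encodes, all of them subunits of the respiratory chain and ATP synthase. Its rRNAs come from the mitochondrial genome, but all of its proteins are encoded in the nucleus, made in the cytosol and imported. Heart muscle is rich in mitochondria, and in humans inherited variants of a few of these genes, MRPL3, MRPL44, MRPS14 and MRPS22 among them, cause cardiomyopathy. Many of the proteins have a counterpart in bacteria and the others are particular to mitochondria. Nuclear respiratory factors and ETS family factors are known regulators of nuclear genes for mitochondrial proteins.

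The members lay on 17 chromosomes, with 11 genes on chromosome 11 and 8 on chromosome 17. Promoter windows from RefSeq (GRCm38.p6), 250 bases before to 50 bases after the annotated start, were found for 62 of the 71 genes, 68 windows in all. Each was searched on both strands for 3 short motifs, the NRF-1 core GCGCATGC, the ETS core CCGGAAG and the YY1 core AAGATGGC. At least 1 of the 3 was present in 51.5% of the members' windows, against 16.7% of the windows of protein-coding genes and 13.3% of all windows in the table. The ETS core was in 33.8% of the members' windows, 11.6% of those of protein-coding genes and 8.86% of all windows. The YY1 core was in 17.6%, 3.05% and 2.75% in the same order, and the NRF-1 core in 10.3%, 3.52% and 2.71%. The letters of the YY1 core hold an ATG, so that a match shortly after the start can coincide with a start codon. Both strands of the NRF-1 core overlap in the longer run GCGCATGCGC. The windows set beside the members were not limited to genes with signal in these hearts, and no other gene family was set apart. Whether the higher shares are particular to these genes was therefore not tested. A match is a description of the letters and not evidence of binding, and no binding was measured.

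The following stretches, from 120 bases before to 30 bases after the start, are examples that hold motif matches. Of these genes 5 had among the lowest p-values or the widest spread described below, and Mrpl32 carries several NRF-1 cores. Mrpl20, Mrpl1 and Mrpl12, also named below, had no match in their windows and are not shown. The stretches run 5′ to 3′ on the strand of the gene, from RefSeq, GRCm38.p6, and capitals mark the motif matches.
Mrps18a, chr17:46110884-46111033, plus strand: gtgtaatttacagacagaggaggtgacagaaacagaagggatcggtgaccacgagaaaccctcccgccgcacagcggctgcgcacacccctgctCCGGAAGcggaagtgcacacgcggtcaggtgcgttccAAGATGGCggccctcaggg
Mrps27, chr13:99344666-99344815, plus strand: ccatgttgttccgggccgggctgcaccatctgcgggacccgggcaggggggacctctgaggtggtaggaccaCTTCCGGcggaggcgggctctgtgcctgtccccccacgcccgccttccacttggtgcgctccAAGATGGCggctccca
Mrpl3, chr9:105053148-105053297, plus strand: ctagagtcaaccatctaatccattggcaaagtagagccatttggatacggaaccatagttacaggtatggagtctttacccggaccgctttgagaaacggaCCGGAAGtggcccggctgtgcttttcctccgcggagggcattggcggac
Mrpl49, chr19:6057726-6057875, minus strand: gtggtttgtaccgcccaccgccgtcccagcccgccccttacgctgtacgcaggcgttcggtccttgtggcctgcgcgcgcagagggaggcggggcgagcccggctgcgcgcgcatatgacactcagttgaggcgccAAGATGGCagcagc
Mrpl32, chr13:14613008-14613157, minus strand: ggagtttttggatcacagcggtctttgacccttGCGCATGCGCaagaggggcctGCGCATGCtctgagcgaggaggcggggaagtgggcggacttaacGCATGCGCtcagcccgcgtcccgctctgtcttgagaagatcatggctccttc
Mrpl52, chr14:54426789-54426938, plus strand: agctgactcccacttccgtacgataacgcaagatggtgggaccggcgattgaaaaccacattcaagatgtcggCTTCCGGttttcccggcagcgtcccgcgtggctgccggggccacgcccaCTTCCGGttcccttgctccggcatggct
Mrps18a and Mrps27 each hold an ETS core upstream of the start and a YY1 core at base 12 and base 15 after it. In Mrpl32 there were 4 NRF-1 matches, of which 2 overlap on opposite strands. Mrpl3 had 1 ETS core, at -19 from the start, Mrpl49 had 1 YY1 core and Mrpl52 had 2 ETS cores on the opposite strand.

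All values below are log2 signals, in which a step of 1 is a doubling of signal, and a signal of 1 probe set cannot be set against that of another. In whole hearts, fewer cells of a type and less RNA per cell cannot be told apart. The 10 cardiomyocyte markers (such as Myh6, Tnnt2 and Ryr2) were all above the median signal, and their mean lay between 11.6 and 11.9 in every heart. The Col4a3 probe set was dim and was not tested, with 5.17, 4.87 and 5.26 in Col4a3-/-OPN-/- hearts, 5.27, 4.96 and 5.19 in Col4a3-/- hearts and 5.07, 5.31 and 5.52 in WT hearts. These values overlap and do not check the genotype labels, since the place of the probes relative to the deleted part is not known here. Spp1 was not analysed here.

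Before the comparisons, the hearts of the Col4a3-/- genotype need a description, because they differed among themselves. Col4a3-/- replicate 3 had the lowest mean Pearson's r with the other arrays over the tested probe sets (0.943, against 0.965 to 0.977 for the other 8). Its endothelial activation markers (Sele, Selp, Icam1, Vcam1 and Saa3) averaged 8.73, against 5.82 to 6.25 in the other hearts. Col4a3-/- replicate 2 had the highest mean of 5 brown fat markers, 8.95, against 5.83 to 7.19 elsewhere, and of 5 airway markers, 7.59, against 4.82 to 6.17. The 6 atrial markers averaged 8.70 and 8.90 in Col4a3-/- replicates 1 and 3, against 9.97 to 10.4 in the other 7 hearts. The 5 smooth muscle markers averaged 7.70, 7.77 and 7.18 in Col4a3-/- hearts, against 8.24 to 8.56 in the other genotypes. Xist, the RNA of the inactive X chromosome, was high in Col4a3-/- replicates 1 and 3 (7.59 and 8.50) and in Col4a3-/-OPN-/- replicate 2 (8.56), and lay between 4.52 and 4.77 in the other hearts. The Y-linked genes Uty, Eif2s3y and Kdm5d were lowest in the same 3 hearts. Uty read 4.55 and 4.49 in Col4a3-/- replicates 1 and 3 and 4.60 in Col4a3-/-OPN-/- replicate 2, against 7.18 to 7.53 elsewhere. By these signals those 3 hearts were female and every WT heart was male, so that Col4a3-/- and WT hearts also differed in sex. Apart from a fit with a Y-linked covariate, given among the alternatives, the part of these differences in the results below was not tested.

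No mitochondrial ribosomal protein gene differed between genotypes at an adjusted p under 0.05. Each comparison was fitted with limma over 13650 probe sets and all 9 hearts, and its two-sided p-values were adjusted after Benjamini and Hochberg. For Col4a3-/- minus WT 0 of 70 genes passed, and 0% of all tested probe sets did. For Col4a3-/-OPN-/- minus Col4a3-/- 0 of 70 passed, against 0.044% of all tested probe sets (6 of them). For Col4a3-/-OPN-/- minus WT 0 of 70 passed, against 0% of all. In the F-test for any difference among the genotypes 0 of 70 passed, against 0.0147% of all, and the smallest adjusted p of a member was 0.550. At an unadjusted p under 0.05 the F-test gave 0 of 70 members, against 9.3% of all tested probe sets. The median half-width of the unadjusted 95% interval of a member's difference was 0.35 log2 units. Larger differences also missed the adjusted threshold, such as -0.66 for Mrpl20 in Col4a3-/-OPN-/- minus Col4a3-/- (limma adjusted p = 0.303). Differences of that size and smaller could therefore have gone unseen. The p-values measure the spread between these hearts alone.

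**Figure D1:**
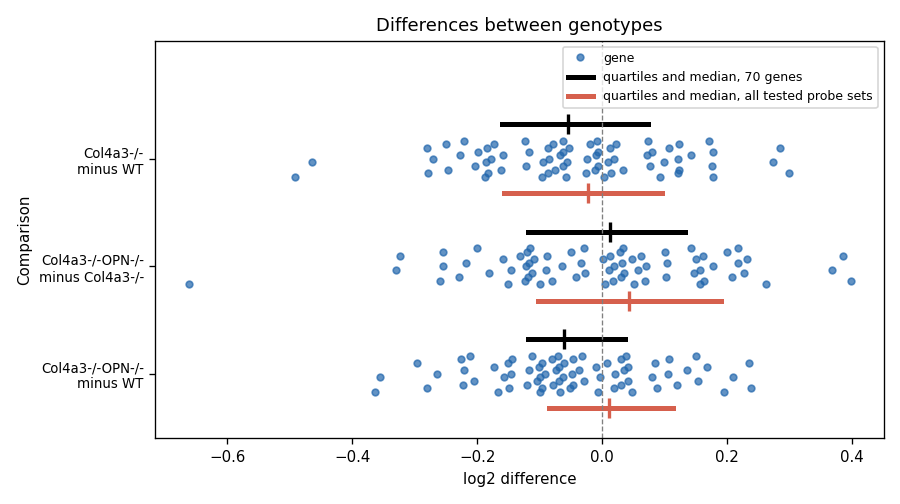
Log2 difference of each of the 70 tested genes (points; horizontal axis) in the 3 comparisons (vertical axis). Bars span the quartiles with a tick at the median, black for the 70 genes and red for all 13650 tested probe sets, and most points lie within 0.3 of 0 in each comparison.

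Col4a3-/- against WT hearts addresses the loss of the collagen chain, but these groups also differed in the sex-linked signals given above. Of the 70 genes 26 had a log2 difference above 0 (37.1%, against 45% of all tested probe sets) and 44 below, between -0.49 and 0.30, and their median was -0.06, against -0.02 over all tested probe sets. An unadjusted p under 0.05 was reached by 2 genes, Mrps18a and Mrps27, a share of 2.86% where all tested probe sets gave 8.35%. The hearts of both genotypes did not overlap for 2 genes, Mrps18a and Mrpl1, against 12.5% of all tested probe sets. Both shares lay below the background.

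Mrps18a encodes one of the proteins related to bacterial S18, and despite its symbol it sits in the large subunit. It measured 8.09, 8.15 and 8.11 in Col4a3-/-OPN-/- hearts, 8.17, 8.25 and 8.28 in Col4a3-/- hearts and 8.07, 7.97 and 7.81 in WT hearts. Every Col4a3-/- heart was above every heart of the other genotypes, and every WT heart was lowest. The log2 difference of Col4a3-/- from WT was 0.28 (SE 0.12, 95% interval 0.02 to 0.55, limma adjusted p = 0.571).

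Mrps27 encodes an RNA-binding protein of the small subunit that is particular to mitochondria. Its signal was 7.87, 8.14 and 8.01 in Col4a3-/-OPN-/- hearts, 8.05, 7.67 and 7.15 in Col4a3-/- hearts and 8.20, 7.90 and 8.16 in WT hearts. The low values came from Col4a3-/- replicates 2 and 3, while replicate 1 lay within the range of WT, so the groups overlapped. The log2 difference of Col4a3-/- from WT was -0.46 (SE 0.21, limma adjusted p = 0.580).

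Mrpl49, a large subunit protein particular to mitochondria, had the most negative difference of the 70. It read 7.62, 7.98 and 7.97 in Col4a3-/-OPN-/- hearts, 8.29, 7.62 and 6.98 in Col4a3-/- hearts and 8.35, 8.11 and 7.90 in WT hearts. Col4a3-/- replicate 3 was by far the lowest heart, and replicate 1 was among the highest. The log2 difference of Col4a3-/- from WT was -0.49 (SE 0.28, limma adjusted p = 0.659).

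Mrpl1, the protein of the L1 stalk near the exit site of tRNA, was lower in every Col4a3-/- heart than in any WT heart. Its values were 7.15, 6.92 and 7.00 in Col4a3-/-OPN-/- hearts, 6.94, 6.77 and 6.73 in Col4a3-/- hearts and 7.16, 7.09 and 7.00 in WT hearts. The gap between the highest Col4a3-/- and the lowest WT heart was small beside the spread within each genotype. The log2 difference of Col4a3-/- from WT was -0.27 (limma adjusted p = 0.608).

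The other genes at either end of this comparison were Mrpl20 (log2 difference 0.30), Mrps18c (0.27), Mrpl32 (0.18), Mrps36 (0.18), Mrpl45 (-0.28) and Mrpl19 (-0.28), with limma adjusted p-values between 0.673 and 0.839. Mrpl45 lies near the exit of the peptide tunnel, where human mitochondrial ribosomes contact the inner membrane. Mrps36 is now counted as a component of the 2-oxoglutarate dehydrogenase complex and not of the ribosome, in spite of its symbol. Its difference turned to -0.10 without Col4a3-/- replicate 1, which at 6.39 was far above the other 8 hearts (5.51 to 5.86). That of Mrpl19 turned to 0.07 without Col4a3-/- replicate 3, which at 6.31 was the lowest of its 9 hearts.

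This comparison rested on single hearts. Without Col4a3-/- replicate 1 the genes at an unadjusted p under 0.05 numbered 14, 13 of them lower in Col4a3-/- hearts, against 10.2% of all tested probe sets lower in the same fit, and 28 of 70 had every remaining Col4a3-/- heart below every WT heart, against 18% of all. In that fit 0 of 70 passed the adjusted threshold (smallest limma adjusted p = 0.164) and the median difference was -0.21. Without Col4a3-/- replicate 3 the median was 0.07 and 0 of 70 reached an unadjusted p under 0.05, against 7.19% of all tested probe sets. Leaving out any 1 of the other 7 hearts gave 0 or 1, against 4.93% to 11.6% of all.

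Setting Col4a3-/-OPN-/- against Col4a3-/- hearts addresses the added loss of osteopontin. It shares the Col4a3-/- hearts with the comparison above, so a heart of that group that stands apart moves both. Of the 70 genes 38 had a difference above 0 (54.3%, against 57.7% of all) and 32 below, from -0.66 to 0.40, with a median of 0.01, against 0.04 over all tested probe sets. The sign of that median depended on the scaling: it was -0.03 after renewed quantile normalization and 0.06 with each array centred on its median. An unadjusted p under 0.05 was reached by 2 genes, Mrpl3 and Mrpl20, or 2.86%, against 13.6% of all. The genotypes did not overlap for 4 genes, against 16.5% of all: Mrpl3 and Mrps12 were higher and Mrpl20 and Mrps18a lower in Col4a3-/-OPN-/- hearts.

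Mrpl3 is a large subunit protein with a bacterial counterpart that reaches towards the catalytic centre, and human MRPL3 is one of the cardiomyopathy genes. It measured 8.39, 8.46 and 8.14 in Col4a3-/-OPN-/- hearts, 8.13, 7.95 and 7.71 in Col4a3-/- hearts and 8.11, 8.22 and 8.03 in WT hearts. Every Col4a3-/-OPN-/- heart was above every Col4a3-/- heart, but Col4a3-/-OPN-/- replicate 3 and Col4a3-/- replicate 1 nearly met. The log2 difference was 0.40 (SE 0.15, 95% interval 0.07 to 0.72, limma adjusted p = 0.303), a signal 1.32 times that of Col4a3-/- hearts.

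Mrpl20, a large subunit protein with a bacterial counterpart, had the largest difference of the members in any comparison. Its signal was 6.96, 6.14 and 7.09 in Col4a3-/-OPN-/- hearts, 7.76, 7.19 and 7.23 in Col4a3-/- hearts and 7.16, 7.22 and 6.91 in WT hearts. One heart at each end set the size: Col4a3-/-OPN-/- replicate 2 was the lowest and Col4a3-/- replicate 1 the highest. The log2 difference of Col4a3-/-OPN-/- from Col4a3-/- was -0.66 (SE 0.25, 95% interval -1.20 to -0.12, limma adjusted p = 0.303).

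Mrps12, the protein of the decoding centre of the small subunit, was at 5.90, 5.89 and 5.94 in Col4a3-/-OPN-/- hearts, 5.86, 5.62 and 5.56 in Col4a3-/- hearts and 5.72, 6.09 and 5.62 in WT hearts. Its Col4a3-/-OPN-/- hearts were nearly equal and lay just above the highest Col4a3-/- heart, with a log2 difference of 0.23 (limma adjusted p = 0.495). Mrps18a, which had been highest in Col4a3-/- hearts, lay below them in all 3 Col4a3-/-OPN-/- hearts. Further differences were those of Mrps27 (0.38), Mrpl46 (0.37) and Mrpl47 (0.26) above 0, and of Mrpl52 (-0.33), Mrpl54 (-0.32), Mrps17 (-0.26) and Mrpl42 (-0.26) below 0. Their limma adjusted p-values lay between 0.424 and 0.555, and in each of these 7 genes the genotypes overlapped. Mrpl46, of the central protuberance of the large subunit, and Mrps11, of the small subunit, start head to head on chromosome 7, where their promoter windows overlap. The difference of Mrps11 was -0.05, of opposite sign to that of Mrpl46.

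Here too the counts moved with single hearts. Without Col4a3-/- replicate 1 there were 10 genes at an unadjusted p under 0.05, all higher in Col4a3-/-OPN-/- hearts, against 11.2% of all tested probe sets higher in that fit, and the median was 0.12. Without Col4a3-/- replicate 3 there were 6, of which 5 were lower, against 4.22% of all lower, and the median was -0.12. Without Col4a3-/- replicate 2 the count was 4 (5.71%), below the 17.6% of all tested probe sets in that fit. Without Col4a3-/-OPN-/- replicate 1 it was 1, against 8.47% of all, and without replicate 2 of that genotype 0, against 10.1%. No member passed the adjusted threshold in these fits.

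The comparison of Col4a3-/-OPN-/- with WT hearts spans both deletions. Here 24 of the 70 genes had a difference above 0 (34.3%, against 53.1% of all) and 46 below, between -0.36 and 0.24, and the median was -0.06, against 0.01 over all tested probe sets. At an unadjusted p under 0.05 there were 0 genes, against 3.68% of all. The genotypes did not overlap for 11 genes, a share of 15.7%, against 13.2% of all tested probe sets. Of these, 3 were higher in Col4a3-/-OPN-/- hearts (Mrpl32, Mrpl47 and Mrps18a), against 7.55% of all, and 8 were lower (Mrpl36, Mrpl38, Mrpl52, Mrpl57, Mrps17, Mrps21, Mrps28 and Mrps33), or 11.4%, against 5.65% of all. The smallest limma adjusted p among the 70 genes was 0.999. With fewer hearts more probe sets of all kinds lack overlap. The count was 20 (28.6%) without WT replicate 2, against 21.1% of all, and 24 (34.3%) without WT replicate 3, against 26.2%. Without Col4a3-/-OPN-/- replicate 2 it was 21 (30%), against 26.5% of all.

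Mrpl52, a large subunit protein particular to mitochondria, measured 8.97, 9.21 and 9.33 in Col4a3-/-OPN-/- hearts, 9.85, 9.23 and 9.41 in Col4a3-/- hearts and 9.61, 9.59 and 9.37 in WT hearts. All Col4a3-/-OPN-/- hearts were below all WT hearts, while Col4a3-/- replicate 1 was above them all. The log2 difference from WT was -0.35 (SE 0.17, 95% interval -0.73 to 0.02, limma adjusted p = 0.999).

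Mrpl38, a protein of the central protuberance, read 7.76, 8.08 and 8.01 in Col4a3-/-OPN-/- hearts, 8.38, 7.96 and 8.05 in Col4a3-/- hearts and 8.26, 8.22 and 8.25 in WT hearts. Its WT hearts were nearly equal and all lay above the Col4a3-/-OPN-/- hearts. The log2 difference from WT was -0.30 (SE 0.15, limma adjusted p = 0.999).

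Mrpl32 must be trimmed by an inner membrane protease, built from the Afg3l2 and Spg7 proteins, before it enters the large subunit. It was at 7.63, 7.52 and 7.53 in Col4a3-/-OPN-/- hearts, 7.56, 7.36 and 7.70 in Col4a3-/- hearts and 7.33, 7.38 and 7.38 in WT hearts. Every Col4a3-/-OPN-/- heart was above every WT heart, by 0.20 log2 units on average (SE 0.13, limma adjusted p = 0.999). The protease genes Afg3l2 (-0.03) and Spg7 (0.05) had limma adjusted p-values of 0.999 as well. Other differences at the ends of this comparison were those of Mrps35 (0.24), Mrps14 (0.23), Mrpl3 (0.21), Mrps18a (0.17), Mrpl20 (-0.36), Mrpl36 (-0.28) and Mrpl49 (-0.26), with the same adjusted p.

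**Figure D2:**
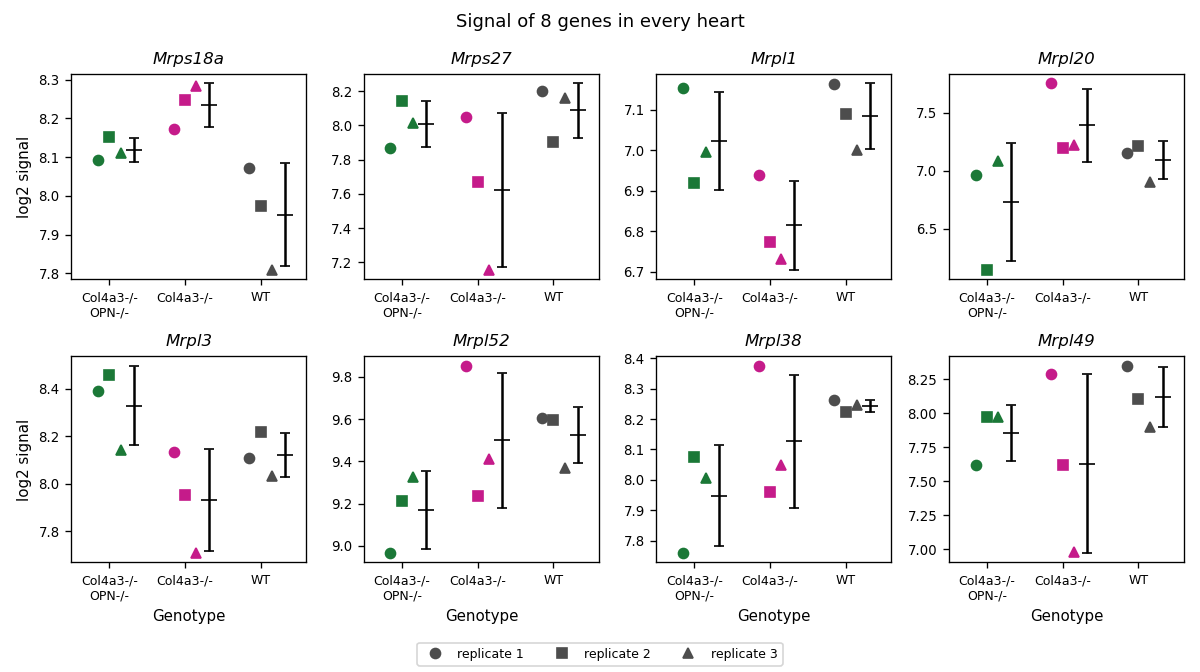
Log2 signal (vertical axis, its own scale in each panel) of 8 genes in Col4a3-/-OPN-/-, Col4a3-/- and WT hearts (horizontal axis). Circles, squares and triangles are replicates 1, 2 and 3, and bars show the mean and SD of the 3 hearts; in Mrps27 and Mrpl49 the Col4a3-/- hearts are spread over the widest range.

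Of the cardiomyopathy genes, Mrpl44 had no probe set of its own. Mrps14, of the small subunit, was near the limit of testing, with 5.41, 5.49 and 5.25 in Col4a3-/-OPN-/- hearts, 5.27, 5.24 and 5.17 in Col4a3-/- hearts and 5.40, 4.97 and 5.08 in WT hearts. Mrps22, also of the small subunit, measured 7.00, 7.02 and 6.91 in Col4a3-/-OPN-/- hearts, 7.22, 7.00 and 6.50 in Col4a3-/- hearts and 7.13, 6.93 and 7.01 in WT hearts. The groups overlapped for both genes in each comparison. Mrpl27, the gene below the limit, lay between 4.83 and 5.35 in all hearts.

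By subunit, the 44 tested genes of the large subunit had median log2 differences of -0.07 for Col4a3-/-OPN-/- minus WT, 0.01 for Col4a3-/-OPN-/- minus Col4a3-/- and -0.08 for Col4a3-/- minus WT. The 25 of the small subunit had -0.01, 0.01 and -0.01 in the same order. Mrps36 was counted with neither. Among large subunit genes, the 27 with a bacterial counterpart had 0.02 for Col4a3-/-OPN-/- minus Col4a3-/-, and the 17 particular to mitochondria had -0.10. None of these medians was tested against another.

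The widest pattern among the 70 genes lay within the Col4a3-/- genotype and not between genotypes. It was seen in the values and is given as a description, with no test. Each gene's signal was set against its own mean over the 9 hearts, and the median of these deviations over the 70 genes was taken in each heart. It was -0.06, 0.01 and 0.00 in Col4a3-/-OPN-/- hearts, 0.28, -0.09 and -0.22 in Col4a3-/- hearts and 0.11, 0.05 and -0.03 in WT hearts. Over all tested probe sets the same median stayed between -0.02 and 0.04 in every heart. Col4a3-/- replicate 1 therefore stood at the top and replicate 3 at the bottom of the 9 hearts for these genes.

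**Figure D3:**
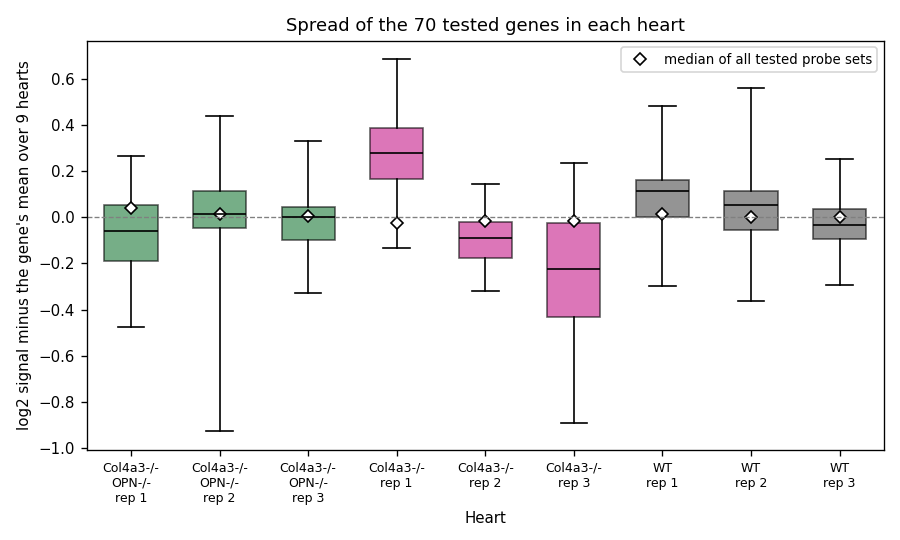
Deviation of the 70 tested genes from their own mean over the 9 hearts (vertical axis, log2 units) in each heart (horizontal axis). Boxes show quartiles and median, whiskers the full range and diamonds the median of all tested probe sets; the box of Col4a3-/- replicate 1 lies wholly above 0 and that of replicate 3 wholly below.

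Counted by gene, 46 of 70 (65.7%) had their highest signal of all 9 hearts in Col4a3-/- replicate 1, against 14.3% of all tested probe sets. In 39 of 70 (55.7%) the lowest was in Col4a3-/- replicate 3, against 26.1% of all. Replicate 1 exceeded replicate 3 in 63 of the 70 genes (90%), against 50.7% of all, and exceeded replicate 2 in 68 (97.1%), against 49.1%. For 27 genes (38.6%) replicate 1 was above and replicate 3 below all 6 hearts of the other genotypes, against 4.97% of all.

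The difference of replicate 1 from replicate 3 of Col4a3-/- had a median of 0.50 log2 units over the 70 genes, from -0.35 to 1.32, and exceeded 0.5 in 34 of them (48.6%). Over all tested probe sets the median was 0.0071 and 12.8% exceeded 0.5. It was widest for Mrpl49, with 8.29 against 6.98, or 2.49-fold. Next came Mrpl19 (1.19), Mrpl12 (1.11), Mrps16 (1.03) and Mrpl34 (0.99). Mrpl12 belongs to the stalk that recruits translation factors, and in humans it also binds the mitochondrial RNA polymerase. The 5 genes are large or small subunit proteins, 4 of them with bacterial counterparts. The 7 genes that ran the other way were Mrps18c, Mrpl48, Mrpl50, Mrps18a, Mrpl32, Mrps18b and Mrpl9, by between -0.03 and -0.35. All 3 of the S18 related genes (Mrps18a, Mrps18b and Mrps18c) were among these 7.

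Every role showed it. Replicate 1 of Col4a3-/- exceeded replicate 3 in 25 of 27 large subunit genes with a bacterial counterpart and in 14 of 17 particular to mitochondria. It did so in 14 of 15 small subunit genes with a bacterial counterpart, in 9 of 10 particular to mitochondria and in Mrps36. The median difference in these groups lay between 0.44 and 0.60, and that of Mrps36 was 0.86.

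**Figure D4:**
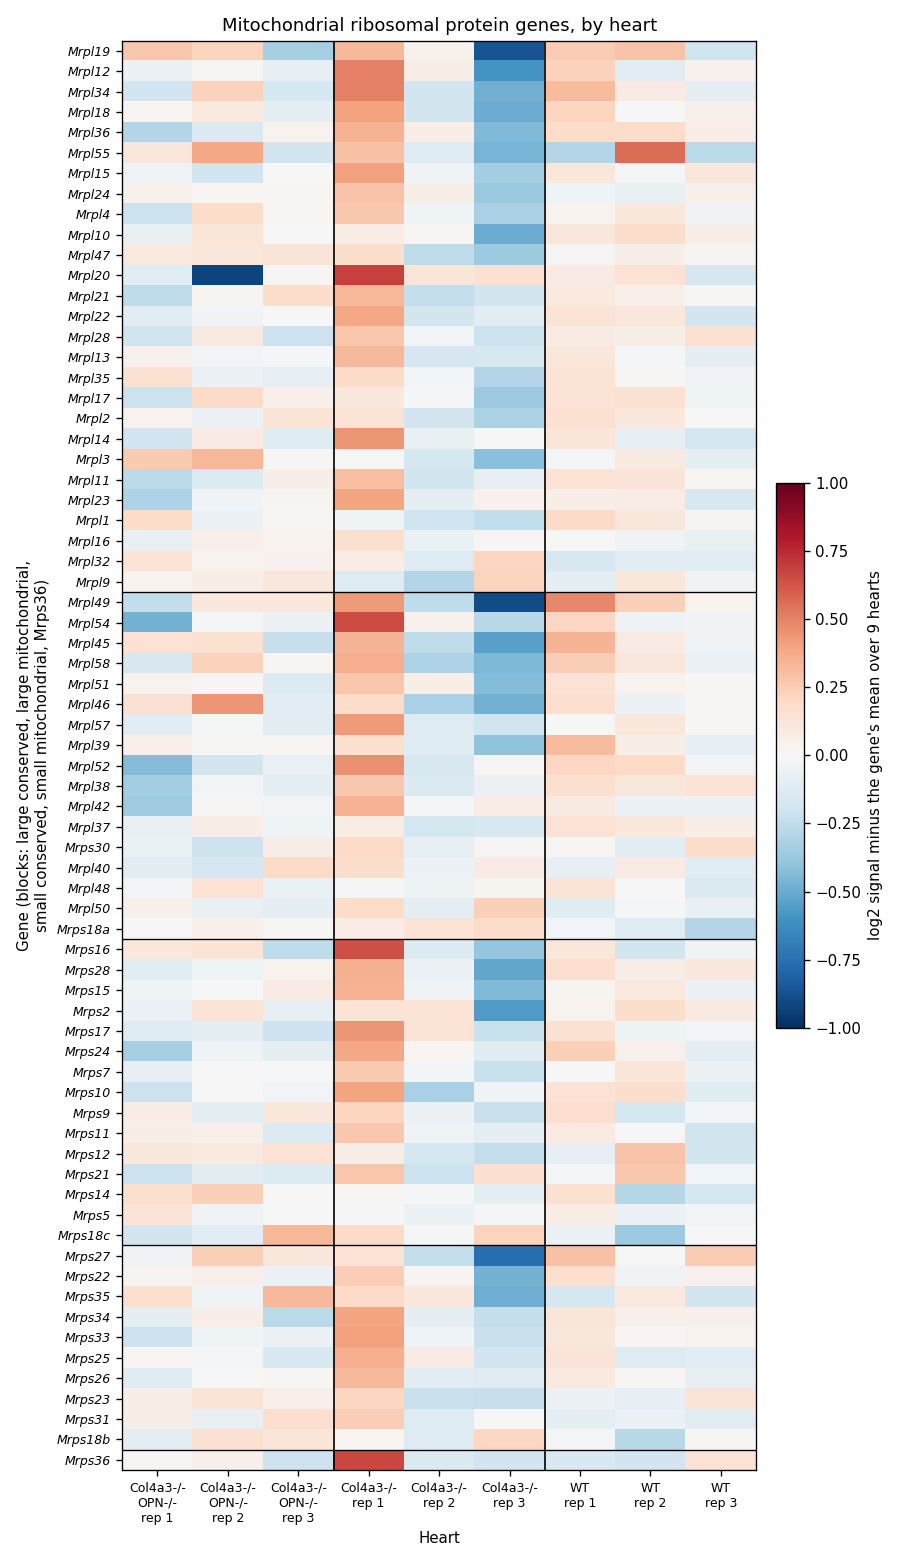
Deviation of each tested gene (rows, in 5 blocks by role) from its own mean over the 9 hearts (colour, log2 units, red above and blue below) in each heart (columns). The column of Col4a3-/- replicate 1 is red in 66 of 70 rows, and that of replicate 3 is the bluest of the 9.

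The spread was wider within Col4a3-/- than within the other genotypes for most of these genes. The median SD over 3 hearts was 0.12 in Col4a3-/-OPN-/-, 0.28 in Col4a3-/- and 0.11 in WT for the 70 genes, against 0.14, 0.21 and 0.12 over all tested probe sets. Col4a3-/- had the largest SD of the genotypes in 58 of 70 genes (82.9%), against 60.9% of all. The fit shares 1 spread per gene among the genotypes, which for most of these genes was narrower than that of the Col4a3-/- hearts. Within Col4a3-/-, the hearts at the top and bottom for these genes both had the high Xist signal and the low atrial markers given above. The mean of the cardiomyocyte markers was the lowest of the 9 hearts in replicate 3, at 11.6, against 11.8 in replicate 1. The list was split: Actc1, Tnni3, Myl2, Myl3 and Pln were lowest in replicate 3. Tnnt2 was highest in replicate 3, and Myh6, Ryr2 and Ttn were lowest in replicate 1. The endothelial activation markers were high in replicate 3 alone. The part of cell makeup in the spread was not tested.

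Most lists of genes that work with the mitochondrial ribosome differed between the same hearts, beside the 50.7% of all tested probe sets that were higher in replicate 1. Replicate 1 of Col4a3-/- exceeded replicate 3 in 12 of 13 mitochondrial translation factors and in all 19 tested genes of the mitochondrial aminoacyl-tRNA synthetase list. In the list for assembly of the ribosome and modification of its rRNA it did so in 26 of 28 genes. That list includes Mdn1, which is known for assembly of the cytosolic ribosome. The 15 genes for mitochondrial transcription and mRNA handling were closer to that background, with 10 higher in replicate 1 and a median gap of 0.11 log2 units, against 0.41 to 0.47 in the 3 lists before. It did so in 33 of 34 complex I subunits, the complex with the most subunits made by this ribosome, whose other subunits, measured here, are encoded in the nucleus. Cytosolic ribosomal proteins differed: replicate 1 exceeded replicate 3 in 16 of 58, and the median deviation was 0.21 in replicate 1 and 0.29 in replicate 3. Thus both of these hearts were high for the cytosolic ribosome, while they were at opposite ends for the mitochondrial one.

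**Figure D5:**
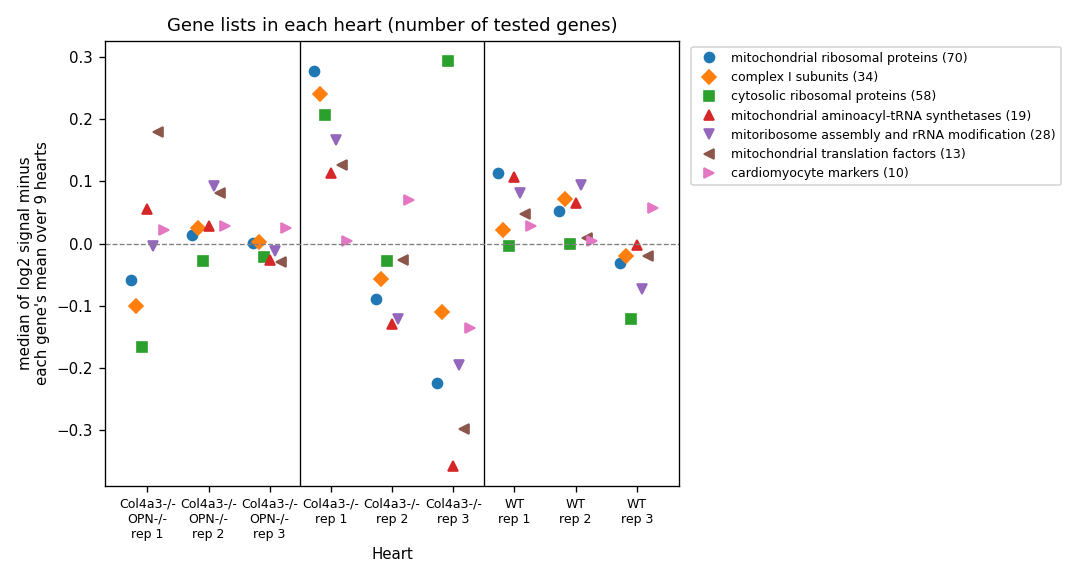
Median deviation from each gene's mean over the 9 hearts (vertical axis, log2 units) for 7 gene lists in each heart (horizontal axis), with the number of tested genes in the legend. In Col4a3-/- replicate 3 the cytosolic ribosomal proteins are at 0.29 and the mitochondrial ribosomal proteins at -0.22, and in replicate 1 both lie above 0.2.

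Between genotypes, 0 genes of these lists passed the adjusted threshold in any comparison, against the shares of all tested probe sets given above. Among the genes related to the ribosome under other symbols, Ptcd3, an RNA-binding protein of the small subunit, measured 8.92, 9.53 and 9.54 in Col4a3-/-OPN-/- hearts, 10.4, 9.92 and 10.4 in Col4a3-/- hearts and 9.77, 9.77 and 9.57 in WT hearts. All Col4a3-/- hearts were above all hearts of the other genotypes. The log2 difference was -0.89 for Col4a3-/-OPN-/- minus Col4a3-/- (limma adjusted p = 0.141) and 0.52 for Col4a3-/- minus WT (limma adjusted p = 0.506). Dap3 and Gadd45gip1, the 2 other measured proteins of the ribosome under other symbols, had differences between -0.15 and 0.24 in the 3 comparisons.

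Most enzymes of the mitochondrial aminoacyl-tRNA synthetase list load tRNAs with amino acids. Qrsl1, Gatb and Gatc are instead subunits of an enzyme that converts an amino acid already loaded. The list had a median difference of -0.14 for Col4a3-/- minus WT and 0.14 for Col4a3-/-OPN-/- minus Col4a3-/-. In the first of these 16 of 19 genes were below 0, against 55% of all tested probe sets. They numbered 12 of 19 without Col4a3-/- replicate 3, against 56.5% of all, with a median of -0.07. Without Col4a3-/- replicate 1 they numbered 18 of 19, against 52.7% of all, with a median of -0.30. Both settings were added for these lists after the data were seen. Lars2, the leucyl-tRNA synthetase, was at 7.63, 7.80 and 7.15 in Col4a3-/-OPN-/- hearts, 6.77, 6.91 and 6.25 in Col4a3-/- hearts and 7.25, 7.30 and 7.49 in WT hearts. Every Col4a3-/- heart lay below every heart of the other genotypes. The log2 difference was 0.88 for Col4a3-/-OPN-/- minus Col4a3-/- (limma adjusted p = 0.156) and -0.70 for Col4a3-/- minus WT (limma adjusted p = 0.451). Vars2, the valyl-tRNA synthetase, had 0.58 and -0.50 in these comparisons, with limma adjusted p-values of 0.306 and 0.579. Gatc and Sars2 ran otherwise: for Col4a3-/- minus WT they had -0.35 and -0.30, and for Col4a3-/-OPN-/- minus Col4a3-/- -0.06 and -0.03. For Col4a3-/-OPN-/- minus WT they had -0.41 and -0.33, and their limma adjusted p-values lay between 0.596 and 0.999. In that comparison the list had a median of -0.04, with 8 of 19 genes above 0, against 53.1% of all tested probe sets.

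The counts by sign in the other lists also moved with single hearts. Of the 13 translation factors, 12 had a negative difference for Col4a3-/- minus WT, from Mrrf, the ribosome recycling factor (-0.29), up to Guf1 (0.34), the 1 gene above 0. But 5 of the 13 were below 0 without Col4a3-/- replicate 3, and the median turned to 0.05, against -0.11 with all hearts. For Col4a3-/-OPN-/- minus Col4a3-/- the highest was Tufm, the elongation factor Tu (0.36), and the lowest Guf1 (-0.16). Of the 28 assembly and rRNA modification genes, 22 were below 0 for Col4a3-/- minus WT, with Mrm3 (-0.38) lowest and Malsu1 (0.18) highest, and 15 were without Col4a3-/- replicate 3. Mrm1, a methyltransferase of the large rRNA, had the highest difference for Col4a3-/-OPN-/- minus Col4a3-/- (0.49, limma adjusted p = 0.336). Of the 15 transcription and mRNA genes, 12 were below 0 for Col4a3-/- minus WT and 14 above 0 for Col4a3-/-OPN-/- minus Col4a3-/-, and without Col4a3-/- replicate 3 these numbered 8 and 10. Lrpprc, which stabilises mitochondrial mRNAs, had 0.41 in that comparison. Tfam, which packages mitochondrial DNA, had 0.30 for Col4a3-/-OPN-/- minus WT (limma adjusted p = 0.999). Without Col4a3-/- replicate 3 the medians for Col4a3-/- minus WT stayed below 0 in the assembly list (-0.05) and the transcription list (-0.07). Without Col4a3-/- replicate 1, 12 of 13 translation factors, 26 of 28 assembly genes and 13 of 15 transcription genes were below 0. Of all tested probe sets 52.7% were below 0 in that setting, 55% with all hearts and 56.5% without Col4a3-/- replicate 3. Without that replicate the translation factors (38.5%), the assembly list (53.6%) and the transcription list (53.3%) lay below the share of all. For Col4a3-/-OPN-/- minus Col4a3-/- 57.7% of all were above 0 with all hearts and 57.9% without Col4a3-/- replicate 3.

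Median differences of the neighbouring lists were as small for complex I subunits as for the mitochondrial ribosome, with -0.06 for Col4a3-/-OPN-/- minus WT, -0.03 for Col4a3-/-OPN-/- minus Col4a3-/- and -0.02 for Col4a3-/- minus WT. Those of the 58 cytosolic ribosomal proteins were -0.05, -0.25 and 0.19 in the same order. No difference between these lists was tested.

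For 9 of the 71 genes the array held a further probe set with the same single symbol. Of these, 6 were above the limit for testing. Both probe sets of a gene had differences of opposite sign in at least 1 comparison for Mrpl10, Mrpl12, Mrpl36, Mrps5, Mrps16, Mrps17, Mrps18b and Mrps18c, but not for Mrpl47. For Mrps5 in Col4a3-/- minus WT, for example, they were 0.17 for the dimmer and -0.03 for the brighter probe set. Mrpl30, Mrpl33, Mrpl41, Mrpl43, Mrpl44, Mrpl53 and Mrps6 appear only on probe sets that carry several symbols, and they were not analysed here.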

How the data were processed

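RNA from 9 mouse hearts, 1 array each, was measured on a platform that the probe annotation gives as a whole-transcript gene array. The kit in the labels is made for labelling small RNA, so the labelling used on this array is uncertain. The deposited values are log2 signals per probe set made by RMA, which corrects background, normalizes arrays to each other and summarises the probes of a set, per the submitters' processing notes, with no version given in the sources used here. They were used as deposited, and the number of arrays limits the precision.

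Of 33793 probe sets 23521 had 1 gene symbol, 1814 several, and 8458 were not listed in the annotation. Probe sets with 1 symbol and a mean above the median of 5.21 were tested (13650) with limma 3.58.1 in R 4.3.3 (lmFit, eBayes with an intensity trend, all 9 arrays in 1 fit) and Benjamini-Hochberg adjustment at 0.05, two-sided. With 3 hearts in each group, the smallest p of an exact permutation test is 0.1, and no such test was made. Every adjusted p is limma's. The 71 members matched the RefSeq gene table (GRCm38.p6) by gene identifier, which gave chromosomes and promoters. The fit was also run on simulated data with independent noise and 1 spread per probe set for all genotypes. In these hearts the spread was wider in Col4a3-/- and genes moved together, so the simulation does not check the fit under such conditions.

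Members, roles, marker lists and pathway lists were chosen with earlier results of these data known. Genes were named when they were among the 5 highest, the 5 lowest or the 5 of smallest p in a comparison, the 5 of smallest F-test p, or the 3 of widest range in a genotype, when not tested, or when their probe sets differed in sign. Of the pathway lists some of the ends were named, beside other genes such as Vars2, Afg3l2 and Spg7. The other members are given by counts and ranges, and a member in a count of 5 or fewer by name. Alternatives were other scalings, filters, moderation and array weights, fewer arrays, a Y-linked covariate, the mean of a gene's probe sets, a block for the replicate number, and leaving out single hearts. Leaving out single Col4a3-/- hearts in the pathway lists was added after seeing the data.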

Additional observations from a re-analysis of the deposited data

How the results depend on the processing

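In each of 21 alternatives and for all comparisons and the F-test, 0 members passed the adjusted threshold in limma (lowest adjusted p 0.164, for Col4a3-/- minus WT without Col4a3-/- replicate 1; unadjusted counts follow). For Col4a3-/- minus WT the count at an unadjusted p under 0.05, 2 as reported, was 3 with no intensity trend or with array weights (Mrpl1 added), 2 with each array centred (Mrpl1 in place of Mrps18a), 1 after renewed quantile normalization and 0 with only the 6 arrays compared, with the replicate number as a block or with a Y-linked covariate, and leaving out 1 heart gave 0 to 14. The count without overlap, 2 as reported, was 4 with each array centred, and 2 to 29 with 1 heart left out: 29 without Col4a3-/- replicate 1 (41.4%, against 30.4% of all tested probe sets), 10 without replicate 2 (14.3%, against 26.5%), 5 without replicate 3 (7.14%, against 21.7%), and 5, 5 and 6 without WT replicates 1, 2 and 3 (against 19.7%, 18.5% and 21.2%). For Col4a3-/-OPN-/- minus Col4a3-/- leaving out 1 heart gave 0 to 10 at an unadjusted p under 0.05 (2 as reported) and 4 to 20 without overlap (4 as reported): 20, 9 and 14 without Col4a3-/- replicates 1, 2 and 3 (28.6%, 12.9% and 20%, against 30%, 30.9% and 27.2% of all), and 8 without Col4a3-/-OPN-/- replicate 2 or 3 (11.4%, against 24.7% and 26.2%). For Col4a3-/-OPN-/- minus WT the count at an unadjusted p under 0.05, 0 as reported, was 1 after renewed quantile normalization and 3 with array weights. It was 3 with only the 6 arrays compared (Mrpl36, Mrpl38 and Mrpl52), 2 with the Y-linked covariate and 0 to 2 with 1 heart left out. The count without overlap, 11 as reported, was 12 after renewed quantile normalization (17.1%, against 12.9% of all). It was 10 with each array centred (14.3%, against 14.1%) and 10 with the stricter filter (15.4%, against 12.7%). With the mean of a gene's probe sets it was 9 (12.9%, against 13.2%). With 1 heart left out it was 11 to 24, against 13.2% to 26.5% of all. Fewer hearts in a group separate more easily, since fewer values must not overlap. Among 626 values of named genes under the alternatives 2 turned sign, for Col4a3-/- minus WT: Mrps36 ranged from -0.10 (without Col4a3-/- replicate 1) to 0.33 (without replicate 3), and Mrpl19 from -0.52 (without Col4a3-/- replicate 1) to 0.072 (without replicate 3); the cause was not tested. Whether replicate numbers pair the hearts is not given in the sources used here. Of 9 same-numbered pairs 2 correlated above 0.1 (-0.19 to 0.23), and differently numbered pairs ranged from -0.21 to 0.31. Such values from so few hearts cannot exclude a shared litter or batch. The replicate block moved no other count of members. Over all tested probe sets the adjusted calls for Col4a3-/-OPN-/- minus Col4a3-/- numbered 0 with the block, against 6 without it. Where an arm kept 2 hearts, its spread was pooled with the others. As to signal, 1 of 71 members lay below the limit for testing.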
